A study of Macaca mulatta with 22 samples.

Results

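The genes described here are the LC3 and GABARAP genes of autophagy, MAP1LC3A, MAP1LC3B, MAP1LC3C, GABARAP, GABARAPL1 and GABARAPL2, together with SQSTM1, which encodes the cargo receptor p62. They were chosen by gene symbol: 10 of the 35468 entries of the deposited table carry one of the 7 symbols, and 7 of these 10, 1 for each symbol, were among the 14312 entries with enough signal to test. The 22 libraries are single rhesus macaque oocytes and embryos, each sequenced on its own, 15 embryos and 7 oocytes. The oocytes are at the germinal vesicle stage (GV, 2 libraries), metaphase I (MI, 2) and metaphase II (MII, 3). The embryos are at the pronuclear stage (PN, 3), the 2-cell (2C, 2), 4-cell (4C, 3) and 8-cell stage (8C, 2), the morula (Mo, 3) and the blastocyst (Bl, 2). Per the labels, every oocyte was taken after death from a donor given hormonal superovulation, while every embryo was made by injecting a sperm into an oocyte and was then grown in culture. Fertilization, the injection and the culture therefore cannot be told apart in any comparison of embryos with oocytes. No label names an animal, so p-values measure only the spread between these single oocytes and embryos.

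In autophagy a double membrane closes around cytoplasm and carries it to the lysosome. LC3 and GABARAP proteins resemble ubiquitin and are joined to a lipid of that growing membrane: ATG4 proteases trim them, the E1-like ATG7 and the E2-like ATG3 pass them on, and a complex of ATG12, ATG5 and ATG16L1 places them. SQSTM1 binds ubiquitin-tagged cargo and LC3 together, and also binds KEAP1, the inhibitor of the transcription factor NRF2. In the mouse, autophagy is known to start soon after fertilization, and embryos without maternal and zygotic Atg5 stop before the blastocyst. The values here are messenger RNA levels in RPKM, reads scaled to transcript length and library size, and do not measure lipid-joined protein or autophagic flux.

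1 library stands apart. Morula library 2 had 4277 entries at 1 RPKM or more, against 6763 to 10017 in the other libraries, and results that rest on it are given with and without it. The sequencing depth, a rough estimate from few low values per library, was 5570000 to 21430000 reads per library. The summed level of 9 oocyte marker entries was 911 to 1719 RPKM at PN, 442 to 1133 RPKM at 2C, 694 to 892 RPKM at 4C, 190 to 207 RPKM at 8C, 7.93 to 9.86 RPKM in morulae and 3.13 to 7.64 RPKM in blastocysts, and 1123 to 7342 RPKM in oocytes. The PN range overlaps that of MII oocytes (1123 to 2869 RPKM), so these markers do not separate PN embryos from MII oocytes. In whole embryos, fewer cells of a type and less RNA per cell cannot be told apart.

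The expressed entries, with positions as deposited, were MAP1LC3B on chromosome 20 (85514314 to 85527397, ENSMMUG00000017613), MAP1LC3C on chromosome 1 (215039648 to 215042480, ENSMMUG00000031167) and MAP1LC3A on chromosome 10 (30007730 to 30009364, ENSMMUG00000017681). GABARAP lies on chromosome 16 (6970053 to 6972080, ENSMMUG00000010545), GABARAPL1 on chromosome 11 (10406966 to 10417351, ENSMMUG00000002197), GABARAPL2 on chromosome 20 (73683228 to 73694490, ENSMMUG00000005759) and SQSTM1 on chromosome 6 (176512885 to 176528562, ENSMMUG00000021055). The GABARAPL2 entry has no usable gene name in the table and was identified only by its WikiGene name and its description. The 3 other entries stayed under 1 RPKM in every library and were not tested. They were 2 further GABARAP entries on chromosome 13, with highest values of 0.445 and 0.523 RPKM, and a second MAP1LC3B entry on chromosome 2 that spans 466 bases and reached 0.382 RPKM. How the authors' counting shared reads among such similar copies is not given in the sources used here, and the level of each expressed entry is uncertain to that extent.

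Averaged over stages, MAP1LC3B and MAP1LC3C were higher and SQSTM1 was lower in embryos than in oocytes. GABARAP, GABARAPL1, GABARAPL2 and MAP1LC3A did not pass the test. These differences did not hold at each stage. SQSTM1 had means of 10.1 RPKM at PN and 6.83 RPKM at 2C, above 5.22 RPKM at MII. The PN mean rested on PN library 2 and was 4.93 RPKM without it, below the MII mean. MAP1LC3B had its lowest stage mean at 2C (1.53 RPKM), and MAP1LC3C had a lower mean in morulae (7.58 RPKM) than at GV (11.8 RPKM). Without morula library 2 that morula mean was 11.3 RPKM, near the GV mean. The MAP1LC3C values of morulae and GV oocytes overlapped and were not tested against each other. Embryos were compared with oocytes as the mean of the 6 embryo stages against the mean of the 3 oocyte stages, with limma on log2(RPKM + 1). A gene is called changed here where the limma p-value, adjusted over all 14312 entries by Benjamini-Hochberg, is under 0.05. In that comparison 3 of the 7 genes were called, 2 higher and 1 lower, and 42.8% of all tested entries were called, 11.2% higher and 31.6% lower. The share of the genes called is thus that of the background. The same 3 genes were called in each of 28 alternative settings, which included leaving out each library in turn. The highest limma adjusted p among the settings was 0.0231 for MAP1LC3B, 0.0365 for MAP1LC3C and 0.0484 for SQSTM1, the last near the threshold. On leaving out 1 library it was at most 0.00254, 0.0173 and 0.00451.

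**Figure D1:**
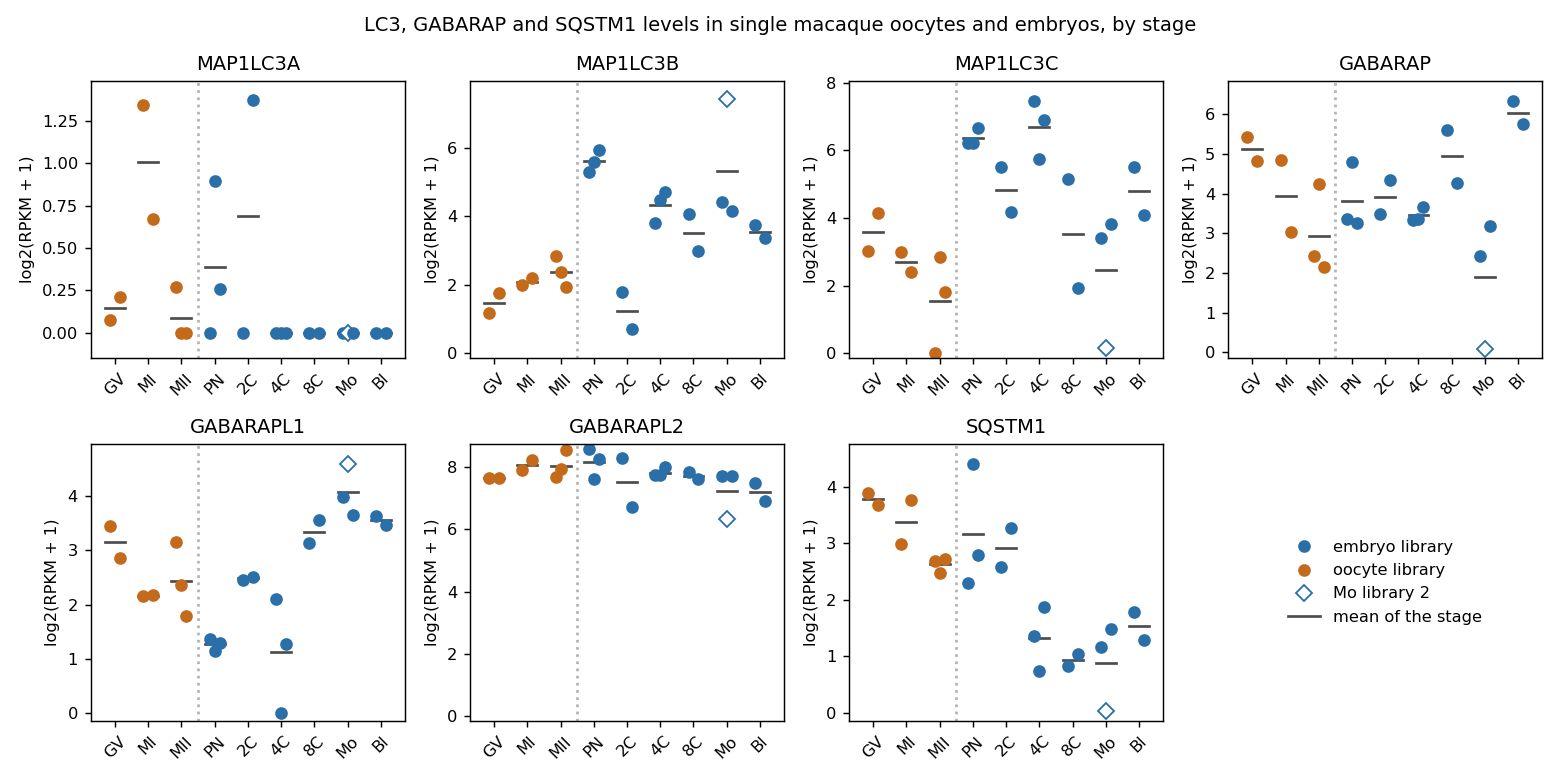
Level of each gene in each of the 22 libraries, as log2(RPKM + 1), by stage, with embryo libraries in blue and oocyte libraries in orange, the mean of each stage as a bar and fertilization as the dotted line. MAP1LC3B and MAP1LC3C sit higher in PN embryos than in MII oocytes, SQSTM1 sits low from the 4C stage on, and the open diamond is morula library 2, the highest MAP1LC3B value and the lowest GABARAP value.

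MAP1LC3B, the most widely used marker of autophagosomes, was low in oocytes and high right after fertilization. In oocytes it had 1.27 and 2.35 RPKM at GV, 2.96 and 3.54 RPKM at MI, and 6.20, 4.15 and 2.83 RPKM at MII. In early embryos it had 38.3, 46.6 and 59.4 RPKM at PN, 2.44 and 0.627 RPKM at 2C, and 12.9, 21.1 and 25.2 RPKM at 4C. In later embryos it had 15.7 and 6.87 RPKM at 8C, 20.4, 169 and 16.8 RPKM in morulae, and 12.3 and 9.26 RPKM in blastocysts. Of the 15 embryo libraries 13 lay above all 7 oocytes. The other 2 were the 2C embryos, whose levels lay within or below the oocyte range. The log2 difference of embryos over oocytes was 1.95 (SE 0.366, limma adjusted p = 0.000313).

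The PN embryos had a mean MAP1LC3B level of 48.1 ± 10.7 RPKM, against 4.39 ± 1.70 RPKM in MII oocytes (SD, n = 3 each), and the groups did not overlap. The log2 change was 3.21 (SE 0.641, limma adjusted p = 0.00448), and its call held in each of the 28 alternatives. The morula mean of 68.6 RPKM rested on morula library 2 and was 18.6 RPKM without it. Morulae were 1.81 higher than 8C embryos on the log2 scale, which missed the threshold (limma adjusted p = 0.0728), and 0.77 higher without that library (adjusted p = 0.289). The change passed it without morula library 1 (2.26, 0.0342) or 3 (2.39, 0.022). Blastocysts against morulae changed by -1.78 (0.111), and by -2.36 without morula library 3 (0.0329).

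MAP1LC3C, a less studied LC3, was also low in oocytes and high right after fertilization, with its highest stage mean at 4C. In oocytes it had 7.05 and 16.6 RPKM at GV, 7.01 and 4.34 RPKM at MI, and 0, 6.23 and 2.53 RPKM at MII. In early embryos it had 73.6, 74.1 and 101 RPKM at PN, 44.1 and 17.2 RPKM at 2C, and 175, 52.9 and 117 RPKM at 4C. In later embryos it had 34.3 and 2.83 RPKM at 8C, 9.51, 0.112 and 13.1 RPKM in morulae, and 44.2 and 16.0 RPKM in blastocysts. Here 10 of the 15 embryo libraries lay above all oocytes, including all 8 libraries at PN, 2C and 4C. 1 of the 2 libraries at 8C and 1 at Bl made up the rest. The log2 difference of embryos over oocytes was 2.17 (SE 0.531, limma adjusted p = 0.00291).

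Of the 7 genes and the 5 steps between stages that were tested, MAP1LC3C at PN against MII showed the largest change. PN embryos averaged 82.9 ± 15.7 RPKM of MAP1LC3C and MII oocytes 2.92 ± 3.14 RPKM (SD, n = 3 each), with no overlap. The log2 change was 4.82 (SE 0.930, limma adjusted p = 0.00354), called in each of the 28 alternatives. The MII mean was 1.26 RPKM without MII library 2. Between 4C and 8C the gene fell by 3.16 on the log2 scale (SE 1.04, limma adjusted p = 0.0326), with 8C embryos at 18.6 ± 22.3 RPKM (n = 2) and 4C embryos at 115 ± 60.9 RPKM (n = 3). That call was lost without 4C library 1 (-2.78, adjusted p = 0.104), 4C library 3 (-3.07, 0.0778) or 8C library 2 (-1.56, 0.413). It was also lost with a pseudocount of 0.1 (0.147), with no filter on low values (0.058) and in a fit of the 4C and 8C libraries alone (0.1005).

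MAP1LC3A, the remaining LC3 gene, was close to absent. It was listed at 0 in all 10 libraries from the 4C stage on. Its highest values were 1.59 RPKM in 2C library 2 and 1.53 RPKM in MI library 1, the only 2 libraries at 1 RPKM or more, and the values that carried it past the filter on low signal. It passed neither the embryo comparison (log2 difference -0.23, limma adjusted p = 0.269) nor the test over the 9 stages (0.0983). Leaving out 2C library 2 brought both under the threshold (-0.35, 0.0463, and 0.0395), and leaving out 2C library 1 the second (0.0058).

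GABARAPL2, also known as GATE-16, was the most abundant of the family in all but 1 library. It had 200.1 and 198 RPKM at GV, 240.3 and 298 RPKM at MI, and 205, 242 and 370.5 RPKM at MII. In embryos it had 379, 196 and 308 RPKM at PN, 312 and 105 RPKM at 2C, and 212, 212 and 253 RPKM at 4C. Later it had 229 and 195 RPKM at 8C, 207, 79.0 and 208 RPKM in morulae, and 179 and 118 RPKM in blastocysts. The lowest value was that of morula library 2, and 6 embryo libraries lay below all oocytes while 1 lay above. The log2 difference of embryos over oocytes was -0.31 (95% interval -0.85 to 0.23, limma adjusted p = 0.339), close to the median of -0.26 over all entries. Its sign turned to 0.33 under median-of-ratios scaling, where the median of all entries was 0.05. It was also not called in the test over the 9 stages (0.48), and neighbouring stages in the order of its means overlapped throughout.

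GABARAP showed no net difference between embryos and oocytes but varied between stages. It had 42.1 and 27.3 RPKM at GV, 27.7 and 7.20 RPKM at MI, and 4.35, 17.8 and 3.47 RPKM at MII. In early embryos it had 9.31, 26.6 and 8.65 RPKM at PN, 10.1 and 19.2 RPKM at 2C, and 9.14, 9.29 and 11.7 RPKM at 4C. Later it had 47.8 and 18.2 RPKM at 8C, 4.39, 0.055 and 8.14 RPKM in morulae, and 79.7 and 52.8 RPKM in blastocysts. The blastocysts had the highest values of all 22 libraries, above both GV oocytes, and the morulae included the lowest. The log2 difference of embryos over oocytes was 0.01 (95% interval -0.87 to 0.89, limma adjusted p = 0.990).

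Blastocysts had 66.3 ± 19.0 RPKM of GABARAP (SD, n = 2), against 4.20 ± 4.05 RPKM in morulae (n = 3), without overlap. GABARAP was the 1 gene of the 7 called there, where 14.1% of all entries were called, 12% higher and 2.12% lower. The log2 change was 4.14 (SE 0.822, limma adjusted p = 0.00184), and 3.23 without morula library 2 (0.0046). In a fit of the morulae and blastocysts alone it missed the threshold (0.194). The 9 trophectoderm marker entries summed to 1178 to 2470 RPKM in blastocysts, with none at 0 in both, and to 5.53 to 69.3 RPKM in morulae, with 4 at 0 in all 3. The 7 inner cell mass marker entries also summed higher, to 1084 to 2661 RPKM in blastocysts, against 221 to 426 RPKM in morulae. The 6 primitive endoderm entries overlapped, with 17.7 to 34.6 RPKM in blastocysts and 8.41 to 88.6 RPKM in morulae. In GV oocytes the inner cell mass entries summed to 1594 to 2178 RPKM and the primitive endoderm entries to 65.4 to 82.9 RPKM. Neither sum is therefore particular to blastocysts. The part of these markers in the GABARAP difference was not tested.

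The morulae in turn had less GABARAP than 8C embryos, which averaged 33.0 ± 20.9 RPKM (SD, n = 2). It was again the 1 gene of the 7 called, and 25.4% of all entries were called, 5.39% higher and 20% lower. The log2 change was -3.04 (SE 0.822, limma adjusted p = 0.00993), and -2.13 without morula library 2 (0.0348). The call was lost without 8C library 1 (-2.37, 0.121) and in a fit of only these stages (0.2295). MII oocytes had less GABARAP than GV oocytes in each library, with means of 8.55 ± 8.06 RPKM (n = 3) and 34.7 ± 10.5 RPKM (n = 2), but the log2 change of -2.19 missed the threshold (0.106), and passed it without morula library 2 (0.0312). The MII mean was 3.91 RPKM without MII library 2, the PN mean of 14.9 RPKM was 8.98 RPKM without PN library 2, and the morula mean was 2.22 RPKM without morula library 3.

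GABARAPL1, first described in the guinea pig as a gene induced by estrogen, was lowest in PN and 4C embryos and highest in morulae. It had 9.90 and 6.23 RPKM at GV, 3.45 and 3.51 RPKM at MI, and 7.89, 4.17 and 2.47 RPKM at MII. In early embryos it had 1.56, 1.20 and 1.45 RPKM at PN, 4.49 and 4.71 RPKM at 2C, and 3.29, 0 and 1.42 RPKM at 4C. Later it had 7.79 and 10.8 RPKM at 8C, 14.97, 23.3 and 11.6 RPKM in morulae, and 11.5 and 10.1 RPKM in blastocysts. All 3 PN embryos lay below all oocytes, and 6 of the 7 libraries from 8C on lay above them. With low values early and high ones late, the log2 difference of embryos over oocytes was 0.06 (95% interval -0.51 to 0.63, limma adjusted p = 0.871).

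The change that passed the test was between 4C and 8C, around the stage when the macaque embryo's own genome is known to become active. 8C embryos had 9.27 ± 2.09 RPKM of GABARAPL1 (SD, n = 2) and 4C embryos 1.57 ± 1.65 RPKM (n = 3), without overlap. The log2 change was 2.22 (SE 0.532, limma adjusted p = 0.00454). It was called in 27 of 28 alternatives, the exception being the fit of those stages alone (0.0895), and the 4C mean was 0.71 RPKM without 4C library 1. Alternatives that left out a library of another stage kept this log2 change and altered only the shared spread. With MAP1LC3C, GABARAPL1 made 2 of 7 genes called at this step, 1 in each direction, where 24% of all entries were called, 13.9% higher and 10.2% lower. The 8 sperm marker entries summed to 10.9 to 45.2 RPKM in 8C embryos, with 5 at 0 in both, and were all at 0 in the 4C embryos. Their part in these changes was not tested. PN embryos were lower than MII oocytes in GABARAPL1, without overlap, but the log2 change of -1.18 missed the threshold (0.150).

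SQSTM1 was the member called lower in embryos than in oocytes. It had 13.9 and 11.8 RPKM at GV, 6.97 and 12.5 RPKM at MI, and 5.47, 4.54 and 5.63 RPKM at MII. In early embryos it had 3.90, 20.3 and 5.95 RPKM at PN, 4.95 and 8.70 RPKM at 2C, and 1.57, 0.656 and 2.67 RPKM at 4C. Later it had 0.768 and 1.06 RPKM at 8C, 1.24, 0.014 and 1.78 RPKM in morulae, and 2.44 and 1.44 RPKM in blastocysts. The 10 libraries from the 4C stage on all lay below every oocyte, and so did 1 PN embryo, 11 of 15 embryo libraries in all. PN library 2 held the highest value of the 22, and the PN mean of 10.1 RPKM was 4.93 RPKM without it. The log2 difference of embryos over oocytes was -1.47 (SE 0.293, limma adjusted p = 0.000532). No step between the stages compared was called for SQSTM1. Its largest tested step was between MII and GV oocytes, a log2 change of -1.16 (0.243), whose libraries did not overlap. Steps to and from the 2C stage were not tested. SQSTM1 had 4.95 and 8.70 RPKM at 2C and 1.57, 0.656 and 2.67 RPKM at 4C, without overlap.

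**Figure D2:**
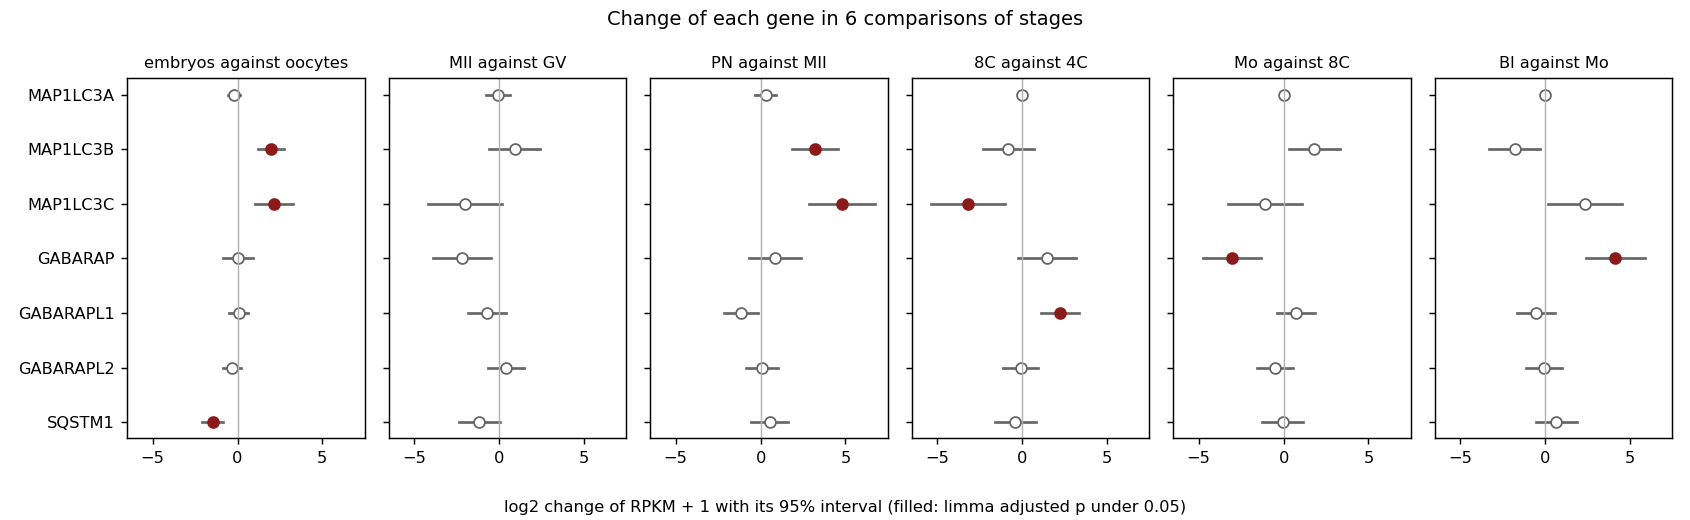
Log2 change of RPKM + 1 for each of the 7 genes, with its 95% interval, in 6 comparisons; filled points have a limma adjusted p under 0.05. The filled points are MAP1LC3B and MAP1LC3C higher and SQSTM1 lower in embryos than in oocytes, both LC3 genes higher in PN than in MII, GABARAPL1 higher and MAP1LC3C lower in 8C than in 4C, and GABARAP lower in Mo than in 8C and higher in Bl than in Mo.

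At PN against MII 2 of 7 were called, both LC3 genes and both higher, where 7.66% of all entries were called, 4.76% higher and 2.91% lower. The summed level of 11 cumulus and granulosa marker entries was 0.84 to 6.21 RPKM in PN embryos, with 7 at 0, and 0.47 to 0.58 RPKM in MII oocytes, with 8 at 0. Between MII and GV none of the 7 was called, against 9.31% of all entries, 0.342% higher and 8.97% lower. 1 of the 7, GABARAP, had an unadjusted p under 0.05 (0.0155). In the test over the 9 stages 5 of 7 were called, all but GABARAPL2 and MAP1LC3A, against 68.3% of all entries. Comparisons of neighbouring stages share libraries, so their values are not independent of each other.

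The make-up of the family changed with these steps. RPKM is per transcript length, so the 6 LC3 and GABARAP levels were summed in each library. The sum had a stage mean of 256 RPKM at GV, 299.9 at MI and 293 at MII, then 442 at PN, 261 at 2C, 372 at 4C, 284 at 8C, 262 in morulae and 267 in blastocysts. GABARAPL2 made up a median of 76.2% of the sum over the 22 libraries, with a highest share of 97.0% and a lowest of 29.1% in morula library 2. By stage its mean share was 77.9% at GV, 89.4% at MI, 92.3% at MII, 65.5% at PN, 77.2% at 2C, 61.7% at 4C, 76.0% at 8C, 63.6% in morulae and 56.0% in blastocysts. Without morula library 2 the morula mean share was 80.8%. MAP1LC3C had a mean share of 19.1% at PN and 29.7% at 4C, beside 0.98% at MII, and MAP1LC3B 11.2% at PN, beside 1.68% at MII. The MAP1LC3C share at MII was 0.33% without MII library 2. In blastocysts GABARAP had a mean share of 25.0%, beside 1.63% in morulae, and 0.86% there without morula library 3. These shares carry no test.

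**Figure D3:**
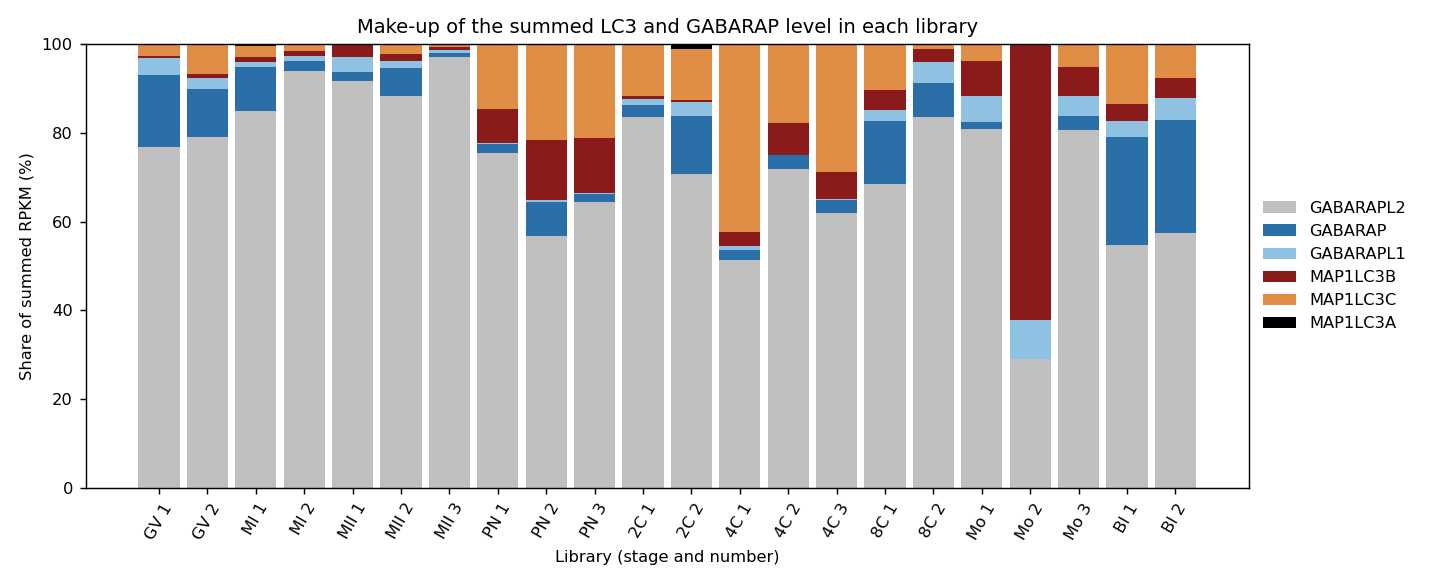
Share in percent of the summed RPKM of the 6 LC3 and GABARAP genes taken by each gene, 1 bar per library in the order of development. GABARAPL2 (grey) takes most of all bars but that of morula library 2, where MAP1LC3B does. Apart from that library the LC3 share (red and orange) is largest at PN and 4C, and the GABARAP share (dark blue) is largest in blastocysts.

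In the order of the stage means most neighbours overlapped. For MAP1LC3B the means ran Mo, PN, 4C, 8C, Bl, MII, MI, GV, 2C, highest first. Without morula library 2 the morula mean was 18.6 RPKM, below PN and 4C (19.7 RPKM). The libraries of PN and 4C, of Bl and MII, and of MI and GV did not overlap. For MAP1LC3C the order was 4C, PN, 2C, Bl, 8C, GV, Mo, MI, MII, and PN and 2C were the only neighbours without overlap. For GABARAP, Bl stood above GV without overlap, and for GABARAPL1 the morulae stood above the blastocysts, 2C above MI, and MI above 4C. For SQSTM1 the single gap lay between MII and Bl, with GV, PN, MI, 2C and MII above it and Bl, 4C, Mo and 8C below.

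The enzymes that join LC3 and GABARAP to lipid did not follow 1 course. ATG7, the E1-like enzyme shared by LC3, GABARAP and ATG12, fell during oocyte maturation and stayed low. MII oocytes had 26.9, 30.2 and 41.0 RPKM, against 336 and 275.5 RPKM in GV oocytes, a log2 change of -3.20 (SE 0.548, limma adjusted p = 0.00151). From PN on the highest ATG7 value was 51.7 RPKM at PN and the stage means ran down to 5.34 RPKM in morulae. Embryos had 14.5 ± 12.3 RPKM (SD, n = 15) and oocytes 141 ± 124 RPKM (n = 7), a log2 difference of -3.25 (SE 0.280, limma adjusted p = 5.80e-08) called in each alternative.

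ATG3, the E2-like enzyme for LC3 and GABARAP, was the most abundant enzyme of the list, with stage means between 158 RPKM in blastocysts and 798 RPKM at GV. At 8C it had 209 and 209.9 RPKM, against 585, 482.5 and 529 RPKM at 4C, a log2 change of -1.34 (SE 0.336, limma adjusted p = 0.00641). Its log2 difference of embryos over oocytes was -0.76 (limma adjusted p = 0.00162) but -0.11 under median-of-ratios scaling (0.679), and -0.54 in the fit of 2 groups without stages (0.324). For ATG5 the difference was -0.68 (0.0375), -0.06 under that scaling (0.89), and also not called in that fit of 2 groups (0.477). The ATG5 call was lost on leaving out any 1 of 12 libraries (0.0516 to 0.112).

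The ubiquitin-like ATG12 was higher at 8C than at 4C, and ATG5, its partner, and ATG10 were higher in morulae than at 8C. 8C embryos had 389 and 147 RPKM of ATG12, against 21.998, 32.9 and 24.3 RPKM in 4C embryos, a log2 change of 3.15 (SE 0.452, limma adjusted p = 4.12e-05). ATG10, the E2-like enzyme that joins ATG12 to ATG5, had 120.2, 65.7 and 78.3 RPKM in morulae, against 0.844 and 10.1 RPKM in 8C embryos. ATG5 had 66.7, 76.4 and 87.9 RPKM in morulae, against 7.45 and 12.2 RPKM in 8C embryos. These log2 changes were 4.25 (SE 0.655, limma adjusted p = 8.32e-05) and 2.87 (SE 0.499, 0.000267), with no overlap. In a fit of only these stages ATG10 missed the threshold (0.0753). ATG12 was lower in blastocysts, with 75.4 and 76.0 RPKM, against 280.3, 236 and 193 RPKM in morulae (log2 change -1.61, limma adjusted p = 0.0208). That call was lost without morula library 1 (0.0531), blastocyst library 1 (0.108) or 2 (0.0856), and in a fit of only those stages (0.0573).

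**Figure D4:**
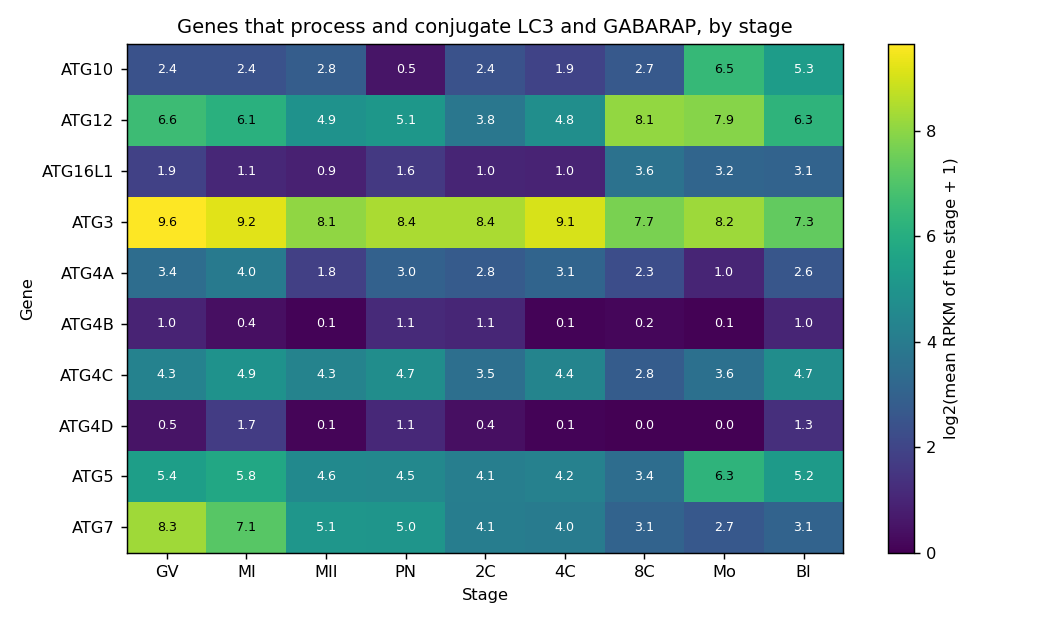
Level of the 10 genes that process LC3 and GABARAP or join them to lipid, as log2 of the mean RPKM of each stage plus 1, with stages in order of development. ATG3 is high throughout, ATG7 is highest at GV, ATG12 is highest at 8C and in morulae, and ATG10 and ATG5 are highest in morulae.

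Over 7 lists of genes around LC3 and GABARAP (initiation, conjugation, other cargo receptors, fusion with lysosomes, lysosome, mTORC1 and AMPK, KEAP1 and NRF2), 100 entries were tested. In embryos against oocytes 7 were higher and 28 lower, with a median log2 difference of -0.18, beside -0.26 over all entries. Under median-of-ratios scaling the split was 16 higher and 12 lower, so the balance of directions depends on the scaling. In the fit of 2 groups without stages none was higher and 7 were lower. Over all entries fewer were called without stages too, and that scaling made the split more even, as given in the closing section. Of the 10 conjugation genes, none was higher and 4 were lower, under that scaling 3 were higher and 1 lower, and without stages 1 was lower. Of the 25 entries of other cargo receptors, 1 was higher and 9 were lower, beside 11.2% and 31.6% of all entries. These counts were 2 and 5 under that scaling and 0 and 3 without stages. Among them OPTN, a receptor for damaged mitochondria, changed by -1.02 on the log2 scale (limma adjusted p = 0.0143), by -0.48 (0.359) under that scaling, by -0.93 (0.0997) without stages, and by -0.95 (0.0533) without GV library 1. The cargo receptor NBR1 was not called in either tested entry (-0.26, limma adjusted p = 0.480, and 0.44, 0.185). BECN1 (-0.22, 0.557), ATG4B (0.08, 0.800) and NFE2L2, which encodes NRF2 (-0.96, 0.0515), were not called either. TFEB stayed under 1 RPKM and was not tested. KEAP1 was listed at 0 in all libraries and could not be set beside SQSTM1.

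At 8C against 4C, 17 of the 100 entries were higher and 8 lower, beside 13.9% and 10.2% of all entries, a share near the background. Of the 22 entries for initiation of autophagy 9 were higher and 1 was lower (6 and 1 in a fit of only these stages), with a median log2 change of 1.23, beside 0 over all entries. NRBF2, a subunit of the class III lipid kinase complex, had 109.5 and 38.4 RPKM at 8C, against 1.58, 0.455 and 2.24 RPKM at 4C (log2 change 4.84, limma adjusted p = 7.68e-06). WDR45, a lipid-binding protein of the growing membrane, had 31.0 and 29.1 RPKM at 8C, against 0, 0.064 and 0.043 RPKM at 4C (4.91, 5.09e-05). FUNDC1, a mitochondrial receptor that binds LC3, was higher in both of its entries (6.33 and 5.38), between which reads may be split. TAX1BP1, a cargo receptor for ubiquitin-tagged proteins, fell by 1.91 on the log2 scale (limma adjusted p = 0.000937). MITF, a transcription factor related to the lysosomal regulator TFEB, had 9.65 and 2.83 RPKM at 8C, against 0.53, 0 and 0.127 RPKM at 4C (2.41, limma adjusted p = 0.000708). GCLC, a target of NRF2 that makes glutathione, had 0.028 and 0.667 RPKM at 8C, against 6.87, 8.13 and 9.003 RPKM at 4C (-2.77, limma adjusted p = 0.00023).

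At Mo against 8C, 7 entries were higher and 17 lower, beside 5.39% and 20% of all entries. Under median-of-ratios scaling 12 were higher and 11 lower, and in a fit of only these stages 2 and 3. Far fewer of all entries were called in that fit as well, as given in the closing section. Besides ATG10 and ATG5, CCPG1, a receptor for the endoplasmic reticulum, was higher, with 112, 137 and 223 RPKM in morulae, against 9.22 and 4.29 RPKM in 8C embryos (log2 change 4.37, limma adjusted p = 3.96e-06). RUBCN, which restrains autophagosome maturation, was lower, with 0.308, 0.795 and 0.154 RPKM in morulae and 10.8 RPKM in each 8C embryo (-3.08, 2.97e-05). STX17, a SNARE for fusion with lysosomes, fell by 2.499 on the log2 scale (0.000311). RB1CC1, a scaffold of the ULK1 complex, and CTSL, a lysosomal protease, were higher in morulae by 2.71 (limma adjusted p = 0.00185) and 2.93 (0.00197). VAMP8 (-2.33, limma adjusted p = 0.00723), MITF (-2.26, 0.00116), the mitochondrial receptor BNIP3L (-2.94, 0.000875) and the ATG9B entry IMMRNTR3034 (-3.10, 0.000163) were lower. Of these 6, ATG9B alone was called in the fit of only these stages.

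At Bl against Mo, 17 entries were higher and 4 lower, 11 and 8 under median-of-ratios scaling, and 4 and 0 in a fit of only these stages. Far fewer of all entries were called in that fit as well, as given in the closing section. Of the 11 lysosome entries 6 were higher and none was lower, with a median log2 change of 1.64, beside 0.23 over all entries, of which 12% were higher and 2.12% lower. The trophectoderm marker entries, 1178 to 2470 RPKM in blastocysts and 5.53 to 69.3 RPKM in morulae, moved with this step. So did the inner cell mass entries, 1084 to 2661 RPKM in blastocysts and 221 to 426 RPKM in morulae. The latter entries also summed to 1594 to 2178 RPKM in GV oocytes, so their sum is not particular to blastocysts. The part of either marker set in this step was not tested. None of the 6 lysosome entries was called in the fit of only these stages. VAMP8, a lysosomal SNARE, had 105.8 and 66.1 RPKM in blastocysts, against 2.87, 0.481 and 8.17 RPKM in morulae (4.498, limma adjusted p = 4.27e-05; 0.127 in that fit). ATP6V0D1, a subunit of the lysosomal proton pump, had 34.9 and 12.3 RPKM in blastocysts, against 1.14, 0.075 and 0.344 RPKM in morulae (3.91, limma adjusted p = 0.000651; 0.0821 in that fit). GCLC had 20.7 and 27.1 RPKM in blastocysts, against 0.108, 0.043 and 0 RPKM in morulae (4.56, 2.42e-06). PIK3C3, the class III lipid kinase, was lower, with 3.47 and 7.74 RPKM in blastocysts and 49.2, 75.5 and 44.9 RPKM in morulae (-3.17, 0.000176; 0.069 in that fit).

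In MII against GV oocytes none of the 100 was higher and 12 were lower, beside 0.342% and 8.97% of all entries. Under median-of-ratios scaling 0 and 5 were, and in a fit of only these stages 3 and 19. Over all entries, too, fewer were called under that scaling and more in that fit, as given in the closing section. With ATG7 the 12 lower entries included VAMP8 (-3.90, limma adjusted p = 0.000754) and the entry named ATG9B (IMMRNTR3034), a membrane carrier of early autophagosomes (-3.85, 0.000280). In PN embryos against MII oocytes 7 were higher and 2 lower, beside 4.76% and 2.91% of all entries. Under that scaling 3 and 0 were, and fewer of all entries were called as well. The ATG9B entry had 30.9, 89.2 and 43.5 RPKM at PN, against 3.12, 5.32 and 1.88 RPKM at MII (3.58, limma adjusted p = 9.99e-05). VPS16, a subunit of the tethering complex for lysosomal fusion, rose by 2.11 (0.00843).

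The genes most like each member were sought by Pearson's r of log2(RPKM + 1) over the 22 libraries, among 5568 other entries that reached 10 RPKM, and the 3 nearest were taken. The points share their stages and libraries, so r is a description. MAP1LC3C was most like BTF3 (0.862), CYB5B (0.789) and CSTF1 (0.786). MAP1LC3B was most like ZNF57 and MTRR (both 0.808) and TBL1XR1 (0.763). GABARAPL1 was most like CMSS1 (0.886), TGS1 (0.856) and HNRNPK (0.845). GABARAP was most like RAB8A (0.859), TAF10 (0.841) and MCM7 (0.805), and GABARAPL2 most like POT1 (0.819), FERMT2 (0.812) and FANCM (0.805). SQSTM1 was most like FAM70B, RFTN1 and ISG20 (each 0.889). Without morula library 2 these values, in the same order, were 0.775, 0.748 and 0.73 for GABARAP and 0.71, 0.743 and 0.69 for GABARAPL2. They were 0.754, 0.725 and 0.665 for MAP1LC3B and 0.842, 0.786 and 0.733 for MAP1LC3C. For GABARAPL1 they were at least 0.81 and for SQSTM1 at least 0.886. MAP1LC3A, at 0 in most libraries, is left aside. Between MAP1LC3B and MAP1LC3C r was 0.24, and 0.58 without morula library 2.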

How the data were processed

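Per the labels' protocols, each of the 22 oocytes and embryos was lysed whole, and libraries were prepared with SMARTer Ultra Low Input and TruSeq DNA reagents. The authors deposited RPKM values per gene, which had no counts beside them; the build is Mmul_8.0.1 per the submitters' processing notes, the file names none, and the aligner, counter and strand setting are not given in the sources used here. Symbols came from the Ensembl name table or from the file. Depth was estimated from low values, from 10 in PN library 2 to 37 in GV library 2, of which 91.8% came within 0.05 of whole reads. The depth was chosen to raise that share, so the share is no check on it. No count test was run.

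Entries with at least 1 RPKM in 2 libraries were kept (14312 of 35468). Values were set on log2(RPKM + 1), which understates changes of low genes, and fitted with limma 3.58.1 in R 4.3.3 with 1 mean per stage, a mean-variance trend and robust moderation, on 13 residual degrees of freedom. P-values were adjusted by Benjamini-Hochberg over all 14312 entries. The fit was tested on simulated data: of 50 entries changed by 2 on the log2 scale between embryos and oocytes, among 14312, 45 were called. There each entry had 1 level in all stages, independent noise and, if changed, the same shift at every embryo stage. The power for changes at only some stages was not measured. Alternatives were a pseudocount of 0.1, no filter, a filter of 5 RPKM, median-of-ratios scaling, a replicate block, fits of only the groups compared, and each library left out in turn. In a comparison of 2 stages, leaving out a library of another stage alters only the shared spread, not the log2 change.

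The genes and the 7 lists around them were chosen with earlier results of these data known. Of 101 list symbols 99 matched entries. Besides the 7 genes, list genes could be named where among the 2 called entries with the largest change in their direction and list. They also needed no overlap and a mean of at least 5 RPKM. Of these, genes whose call did not rest on 1 library are named. A fixed panel is also named in embryos against oocytes: ATG3, ATG4B, ATG5, ATG7, BECN1, KEAP1, NBR1, NFE2L2, OPTN and TFEB. ATG12 at Bl against Mo was named after its values were seen.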

Additional observations from a re-analysis of the deposited data

How the results depend on the processing

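The calls of MAP1LC3B, MAP1LC3C and SQSTM1 in embryos against oocytes, and of both LC3 genes in PN against MII, held in each of 28 alternatives. The nearest to the threshold was SQSTM1, with a highest limma adjusted p of 0.0484. Of the 7 genes, the number called at 8C against 4C was 2 and became 1 with a pseudocount of 0.1, 1 with no filter and 0 in a fit of only those stages. That last fit, which has fewer libraries to estimate the spread, also gave 0 at Mo against 8C and 0 at Bl against Mo, and 1 at MII against GV (SQSTM1, adjusted p = 0.022). The counts over all entries in such fits also fell at Mo against 8C and Bl against Mo and rose at MII against GV, as given below. Median-of-ratios scaling gave 2 at Mo against 8C, adding MAP1LC3B; the cause was not tested. Leaving out 1 library at a time gave 1 to 2 called genes at 8C against 4C, 1 to 2 at Bl against Mo (2 without morula library 3), 0 to 1 at MII against GV (1, GABARAP, without morula library 2) and 0 to 2 at Mo against 8C (2 without morula library 1 or 3).

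Changes of sign were among uncalled values. GABARAP and GABARAPL1 in embryos against oocytes were -0.11 and -0.14 with a pseudocount of 0.1, and -0.032 and -0.017 without a stage term. Under scaling GABARAPL2 was 0.33 in embryos against oocytes, 0.17 at 8C against 4C and 0.063 at Mo against 8C, and SQSTM1 was 0.066 at Mo against 8C. On leaving out 1 library GABARAPL2 ranged from -0.20 to 0.024 at 8C against 4C, -0.51 to 0.25 at Bl against Mo and -0.10 to 0.37 at PN against MII. In embryos against oocytes GABARAP ranged from -0.29 to 0.31 and GABARAPL1 from -0.047 to 0.18. MAP1LC3A ranged from -0.15 to 0.012 at MII against GV, MAP1LC3C from -2.69 to 0.52 at Mo against 8C, and SQSTM1 from -0.34 to 0.39 there and from -0.087 to 0.97 at PN against MII.

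Replicate numbers gave no sign of pairing the libraries: deviations from the stage means correlated at -0.067 to 0.12 between same-numbered ones. In a stage with 2 libraries these deviations mirror each other, so the check is weak. With a replicate block GABARAPL2 was 0.066 at 8C against 4C and 0.11 at Bl against Mo, and no call of the 7 genes changed. Counts over all entries moved by more than 1.5 times in MII against GV (1333, and 636 with a pseudocount of 0.1, 601 under scaling, 2351 in a fit of those stages, 244 to 2004 without 1 library), PN against MII (1097, and 719 under scaling, 582 to 1664 without 1 library), embryos against oocytes (6132, and 1855 without a stage term), Mo against 8C (3636, and 1247 in a fit of those stages) and Bl against Mo (2024, and 411 in such a fit, 1149 without blastocyst library 1). Scaling moved the split over all entries to 2315 higher and 2570 lower in embryos against oocytes. With 2 or 3 libraries a stage, the spread limits what can be called.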
